A study of Drosophila melanogaster with 3 samples.

Results

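Binding of the Runx-family transcription factor Lozenge (lz) was examined at 10 autophagy genes of the fruit fly *Drosophila melanogaster*: Atg1, Atg2, Atg5, Atg7, Atg8a, Atg9, Atg13, Atg17, Atg18a and Atg101. The rule takes the genes by name and uses no peak values, although earlier results of these data were known when the list was made. They are 10 of 13968 protein-coding genes in the dm6 gene models used. A gene was said to have a peak when a peak summit lay within its span or up to 1 kb to either side. Of the 10 genes, 9 had a peak in the thresholded set; the exception was Atg101. The strongest summits lay upstream of Atg2 and Atg17, at the start of Atg18a, and inside introns of Atg5 and Atg1. For those at Atg2, Atg17 and Atg1, the nearest transcription start site was that of another gene.

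Autophagy is the process by which a cell encloses its own cytoplasm in a double membrane, the autophagosome, and delivers it to the lysosome for breakdown. A kinase complex built around Atg1 starts the process, lipid and membrane are then supplied through proteins such as Atg9, Atg2 and Atg18a, and a ubiquitin-like conjugation system attaches Atg8a to the growing membrane. In flies, autophagy is induced by starvation and, around the onset of metamorphosis, by the steroid hormone ecdysone in tissues such as the fat body and the salivary gland.

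Chromatin immunoprecipitation and sequencing (ChIP-seq) was made on flies carrying a transgene that encodes lz with green fluorescent protein at its C-terminus, and the fusion was precipitated with an antibody against the tag. There was 1 group, lz-GFP whole animals at the white prepupa stage, males and females pooled, with 3 biological replicates of 1 library each. Each replicate has a biological material of its own in the labels, which give the age as unknown; which sequences drive the transgene is not given in the sources used here, and no control sample was analysed here. As the chromatin came from whole animals, a missing peak does not show that a site was free in a small group of cells, and no cell type can be told from these data.

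The thresholded set held 8048 peaks called on the pooled replicates, and the pooled list and each replicate list held 30000 calls that include background regions. Peaks are given by their rank within a list, where rank 1 has the highest signal value of the authors. Each replicate was compared through its 8048 highest peaks, and a summit within 100 bp counted as the same summit. Read depth is unknown, since the lists hold no counts. There was no second condition to set against these animals, so no test was made, and the shares over all protein-coding genes stand beside those of the autophagy genes as background only.

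Of the 10 autophagy genes, 9 (90.0%, 95% Wilson interval 59.6 to 98.2) had a thresholded peak, against 38.1% of all protein-coding genes. Among the 6933 genes with a span between those of the shortest and longest autophagy gene, the share with a peak was 46.1%. Autophagy genes with a promoter summit, meaning 1 at most 500 bp from a transcription start site (TSS) of the gene itself, numbered 7 of 10 (70.0%, interval 39.7 to 89.2), against 26.9% of all genes. Atg1 and Atg5 had a peak but no promoter summit. For 7 of the 10 genes the TSS nearest to at least 1 of their summits was their own, against 25.3% of all genes. The exceptions were Atg7, Atg17 and Atg101. Atg1 counts here only through a summit of rank 7710, 6041 bp from its TSS, and Atg5 through a summit 4496 bp away. The stronger summits of Atg1 and Atg2 lay nearest to the TSS of another gene. A pooled call of any strength lay at the same 9 genes (90.0%), against 62.3% of all genes. The intervals cover counting error only, and with 10 genes they are wide.

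**Figure D1:**
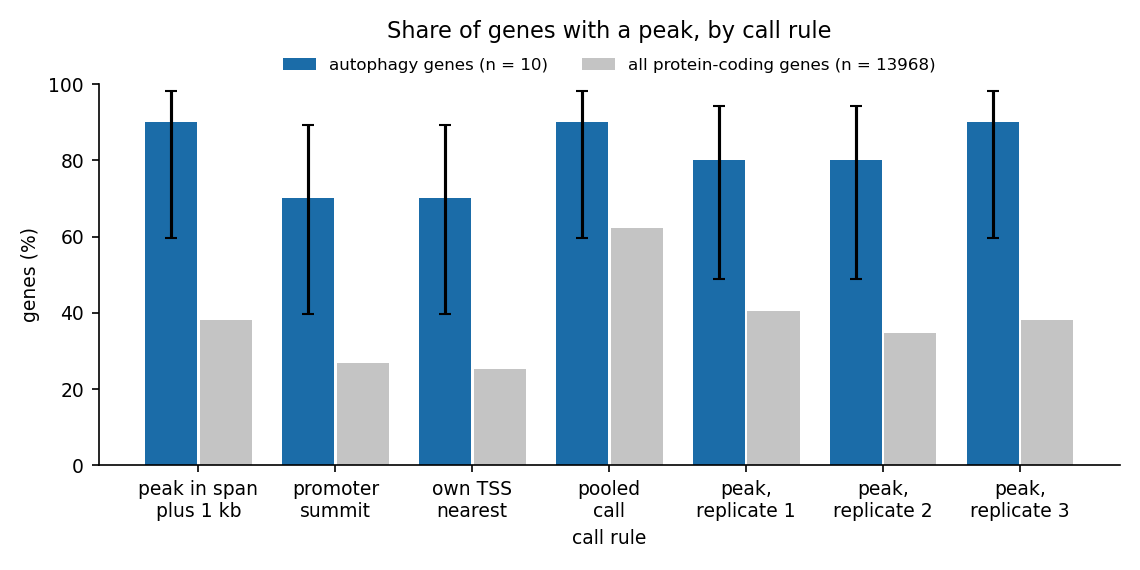
Share of genes (%) with a peak under 7 call rules, for the 10 autophagy genes (blue, left) and all 13968 protein-coding genes (grey, right); error bars are 95% Wilson intervals. The blue bars lie between 70.0% and 90.0% and the grey bars between 25.3% and 62.3%.

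**Figure D2:**
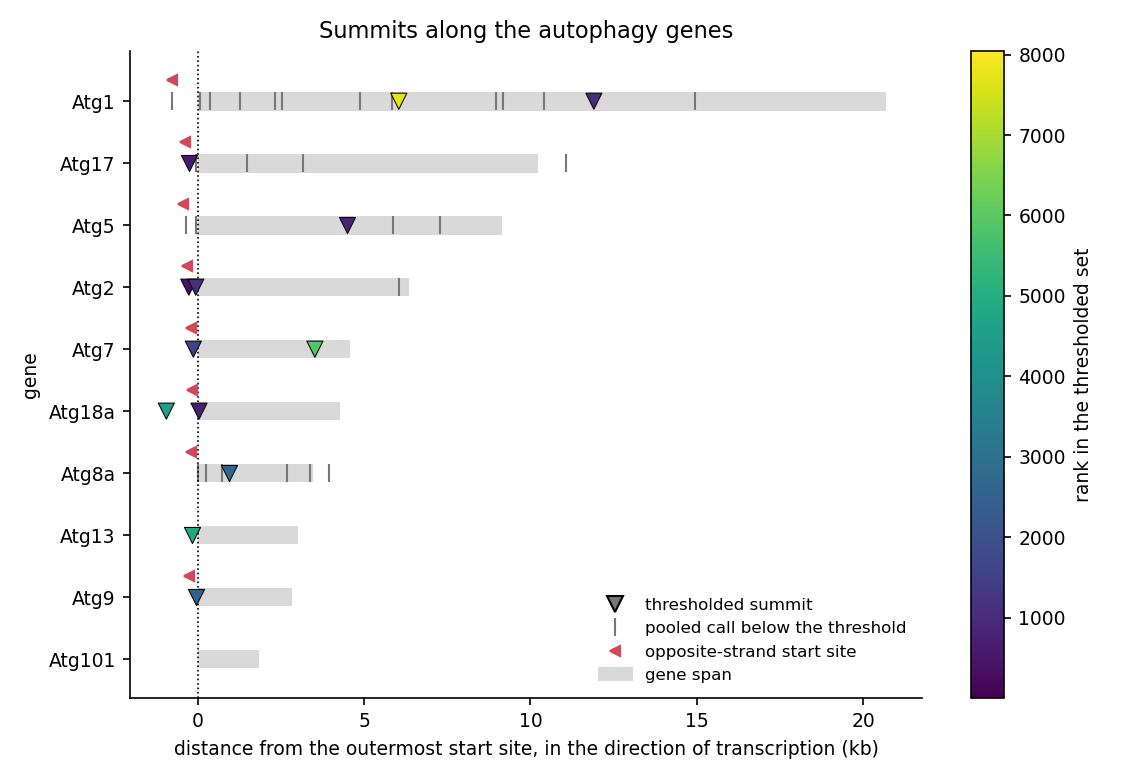
Summits along the 10 autophagy genes, by distance from the outermost TSS in the direction of transcription (kb). Triangles are the 13 thresholded summits, coloured by rank; ticks are the 27 weaker pooled calls; red arrows mark the nearest opposite-strand TSS upstream, present at 8 genes. A triangle lies within 500 bp of 0 at Atg2, Atg7, Atg9, Atg13, Atg17 and Atg18a.

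The members of the initiation complex differed most among themselves. Atg1 (FBgn0260945, chromosome 3L, 12784429 to 12805116, minus strand) encodes the serine/threonine kinase that starts autophagosome formation. Its top summit, at 12793210, ranked 1001 and lay in an intron 11906 bp inside the gene, at a place where the gene CG42709 is nested in it; the nearest TSS was that of CG42709, 1992 bp away. The summit ranked 948, 1500 and 863 in replicates 1, 2 and 3, so it was among the stronger peaks of each. A weaker summit of rank 7710, 6041 bp inside Atg1, ranked 7687 in replicate 2 and 9763 in replicate 3, and replicate 1 had no call within 100 bp of it, the nearest being 125 bp away. By the 100-bp rule it was therefore found among the highest peaks of 1 replicate only. The replicate 1 call 125 bp away ranked 6563 there and lay inside the interval of the thresholded peak.

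Atg17 (FBgn0037363, chromosome 3R, 5669713 to 5679930, plus strand) encodes the scaffold protein of the Atg1 complex, the fly counterpart of FIP200. Its single thresholded summit ranked 567 and lay at 5669457, 256 bp upstream of its TSS and 123 bp upstream of that of Xe7, which is transcribed the other way. The ranks were 698, 375 and 670 in replicates 1, 2 and 3. Replicates 1 and 2 had a further summit closer to the Atg17 TSS, at -82 bp with rank 2659 and at -103 bp with rank 1480. Replicate 3 had no call there, and the matching pooled call at -52 bp ranked 16050.

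Atg13 (FBgn0261108, chromosome 3R, 8349815 to 8352817, plus strand) encodes the regulatory subunit that binds Atg1 and Atg17. It had the weakest top peak of the 9 genes, at rank 4805, with its summit at 8349640, 175 bp upstream of the TSS. The ranks were 8639, 3867 and 3981 in replicates 1, 2 and 3, so in replicate 1 the call fell outside the 8048 highest peaks. Atg13 was also the single gene of the 9 with no TSS of an opposite-strand gene in the 1 kb upstream of it. A minus-strand TSS did lie just beyond that 1 kb, 862 bp from the summit.

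Atg101 (FBgn0030960, chromosome X, 18791668 to 18793517, plus strand) encodes the subunit that stabilises Atg13. It had no thresholded peak, no pooled call and no call in any of the 3 replicate lists. The nearest thresholded summit, at 18789967 with rank 3428, lay 1701 bp upstream of it and 195 bp from the TSS of its neighbour S6KL. The replicates placed that summit 1628, 1756 and 1706 bp from Atg101, with ranks of 5233, 3040 and 3312, so its position outside the 1 kb margin was alike in all 3. Atg101 was the shortest of the 10 genes, with a span of 1850 bp.

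The DNA at the sites of this complex is shown to let the promoter and intronic summits be compared. Each promoter runs from 300 bases upstream to the base before the outermost TSS and the Atg1 window reaches 50 bp to either side of the summit, all on the strand of the gene, from the RefSeq dm6 genome. Capitals mark the matches to the motifs that are described further on: TGATAA or AGATAA for GATA factors, TATCGATA for the DNA replication-related element (DRE) and CGATAT for BEAF-32. The Atg17 promoter (chr3R:5669413-5669712, plus strand) has its summit at base 45, the Atg13 promoter (chr3R:8349515-8349814, plus strand) at base 126, and the Atg1 window is chr3L:12793160-12793260, minus strand.
Atg17 promoter: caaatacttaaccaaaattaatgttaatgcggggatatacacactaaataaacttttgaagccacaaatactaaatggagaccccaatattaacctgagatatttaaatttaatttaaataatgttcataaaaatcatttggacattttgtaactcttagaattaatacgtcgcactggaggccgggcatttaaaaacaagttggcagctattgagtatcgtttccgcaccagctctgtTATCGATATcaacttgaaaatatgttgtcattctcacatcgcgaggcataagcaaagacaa
Atg13 promoter: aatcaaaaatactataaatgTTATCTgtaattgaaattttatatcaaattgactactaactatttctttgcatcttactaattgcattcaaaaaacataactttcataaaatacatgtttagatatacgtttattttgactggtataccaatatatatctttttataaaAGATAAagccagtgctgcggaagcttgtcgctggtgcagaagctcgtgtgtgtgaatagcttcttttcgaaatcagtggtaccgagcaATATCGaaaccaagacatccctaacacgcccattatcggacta
Atg1 intron window: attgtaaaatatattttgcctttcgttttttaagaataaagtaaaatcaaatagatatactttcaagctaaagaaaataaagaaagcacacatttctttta

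In the Atg17 promoter the DRE and the overlapping BEAF-32 sequence stand at bases 240 to 248, 199 bp from the thresholded summit. The DRE starts 61 bp upstream of the TSS, on the side of the further summit that replicates 1 and 2 called. In the Atg13 promoter an AGATAA stands 47 bp from the summit, and the sequence around that summit is 19.8% G and C; 1.63% of all thresholded windows had less. The Atg1 window holds none of the motifs searched and is likewise AT-rich, with 20.8% G and C.

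All 3 genes of membrane supply had a summit at their own start. Atg2 (FBgn0044452, chromosome 3L, 2774338 to 2780677, plus strand) encodes a protein known, from yeast and mammals, to carry lipid into the growing membrane. It had the strongest peak of the 10 genes, a 448-bp interval with a pair of summits at 2774064 and 2774273 that ranked 418 and 1107. The first summit lay 274 bp upstream of the Atg2 TSS and 57 bp upstream of the TSS of CG12093, which points the other way, and the other lay 65 bp upstream of Atg2. The summit near CG12093 ranked 483, 378 and 478 in replicates 1, 2 and 3, and the summit near Atg2 ranked 1209, 985 and 1157. The summit near CG12093 was thus the stronger of the pair in every replicate.

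The promoter of Atg2 is printed because both summits of the pair fall between the start sites. The 300 bases upstream of its TSS (chr3L:2774038-2774337, plus strand) have the summits at bases 27 and 236, and the capitals mark a TGATAA 5 bp from the stronger summit.
Atg2 promoter: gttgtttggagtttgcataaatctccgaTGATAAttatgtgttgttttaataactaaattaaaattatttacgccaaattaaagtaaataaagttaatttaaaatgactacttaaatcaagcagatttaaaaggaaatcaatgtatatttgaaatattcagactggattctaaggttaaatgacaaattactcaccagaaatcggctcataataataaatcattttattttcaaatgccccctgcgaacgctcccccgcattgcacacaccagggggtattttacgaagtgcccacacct
The window around the stronger summit has 31.7% G and C, and that around the summit near Atg2 has 43.6%. No motif searched was found within 50 bp of the summit near Atg2.

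Atg18a (FBgn0035850, chromosome 3L, 8186857 to 8191118, plus strand) encodes a protein that binds the phosphoinositide PI3P on the forming membrane. Its top summit ranked 683 and lay at 8186890, 33 bp inside the gene in the 5' UTR, with the opposite-strand TSS of ERR 219 bp away. The ranks were 998, 349 and 907 in replicates 1, 2 and 3, highest in replicate 2. A weaker summit of rank 4563 lay 950 bp upstream of Atg18a, inside ERR and 237 bp from a TSS of that gene, and ranked 4289, 5597 and 5946. Replicate 1 also had a summit of rank 6190 at 8191184, just past the end of Atg18a, where the pooled list had no call.

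Atg9 (FBgn0034110, chromosome 2R, 16294400 to 16297232, plus strand) encodes the multi-pass membrane protein of the vesicles that seed the autophagosome. Its single summit, at 16294339, ranked 2486 and lay 61 bp upstream of the TSS, between Atg9 and the opposite-strand gene CG7747, whose TSS was 209 bp from it. The ranks of 2532, 2726 and 2261 in replicates 1, 2 and 3 were close together. The interval of 203 bp was the narrowest of those at the autophagy genes, whose median was 430 bp, as over all thresholded peaks.

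Among the conjugation genes, summits lay inside the gene at Atg5 and Atg8a and upstream at Atg7. Atg5 (FBgn0029943, chromosome X, 7314622 to 7323770, minus strand) encodes the protein to which Atg12 is joined. Its summit at 7319274 ranked 812 and lay 4496 bp inside the gene in an intron, where CG1677 and lncRNA:CR44357 overlap it. The ranks were 829, 950 and 777 in replicates 1, 2 and 3. At the start of Atg5 itself there were pooled calls below the threshold, of rank 9556 at -347 bp and 14046 at -68 bp. The call at -347 bp had ranks of 9249, 9532 and 12975, so it was found in each replicate but outside the 8048 highest peaks of all 3.

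Atg8a (FBgn0052672, chromosome X, 10764878 to 10768338, minus strand) encodes the ubiquitin-like protein of the LC3 family that is attached to the membrane. It has 3 annotated TSSs, and its summit at 10767411, rank 2619, lay 105 bp upstream of the nearest of these and in an intron of the longest transcript. The ranks were 3022, 3653 and 1772 in replicates 1, 2 and 3. Replicate 3 had a further summit of rank 7709 at -298 bp, where the pooled call ranked 14161. The summit was 1126 bp from the TSS of BTBD9, the opposite-strand gene beyond the outermost start of Atg8a.

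The windows around the summits of Atg5 (chrX:7319224-7319324, minus strand) and Atg8a (chrX:10767361-10767461, minus strand), again 50 bp to either side and on the strand of the gene, are printed as the intronic sites of this group. They hold no capitals, because none of the motifs searched was in them.
Atg5 intron window: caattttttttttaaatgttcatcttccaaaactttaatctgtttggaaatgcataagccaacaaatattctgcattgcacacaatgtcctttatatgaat
Atg8a intron window: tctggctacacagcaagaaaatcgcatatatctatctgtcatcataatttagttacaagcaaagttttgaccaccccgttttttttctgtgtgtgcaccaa

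Atg7 (FBgn0034366, chromosome 2R, 18620466 to 18625044, minus strand) encodes the E1-like enzyme that activates both Atg8a and Atg12. Its summit at 18625182 ranked 1581 and lay 138 bp upstream of the TSS and 67 bp upstream of that of Sec6, an exocyst gene on the other strand. Inside the gene, a summit of rank 5876 lay 14 bp upstream of the TSS of the nested gene CG5335 and 3517 bp from that of Atg7. The summit next to Sec6 ranked 1574 in replicate 1 and 1428 in replicate 3, and the summit at CG5335 ranked 3477 and 4467 there. Replicate 2 had no call of any rank at either, and its nearest calls were 15598 and 11943 bp away.

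The gap in replicate 2 was wider than Atg7. The replicate 2 list holds 30000 calls, as do the other replicate lists, so weaker signal may be left out of it. It had no call between 18609584 and 18643182 on chromosome 2R. In that stretch of 33598 bp, replicate 1 had 8 calls and replicate 3 had 10. Within it, 5 thresholded peaks had no replicate 2 call within 100 bp: those at Atg7, a pair nearest to GEFmeso with ranks of 1628 and 7784, and 1 nearest to CG30122 with rank 2021. Gaps of that length occurred elsewhere in the list, since 222 of the 29994 gaps between neighbouring calls in replicate 2 were at least as long. Gaps holding 5 or more unmatched thresholded peaks numbered 3 in replicate 2 and 0 in replicates 1 and 3. Of the 1581 thresholded peaks as strong as that of Atg7 or stronger, 27 had no replicate 2 call within 100 bp, against 5 in replicate 1 and 3 in replicate 3. Why replicate 2 lacks calls here was not tested, and the peaks at Atg7 rest on replicates 1 and 3.

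**Figure D3:**
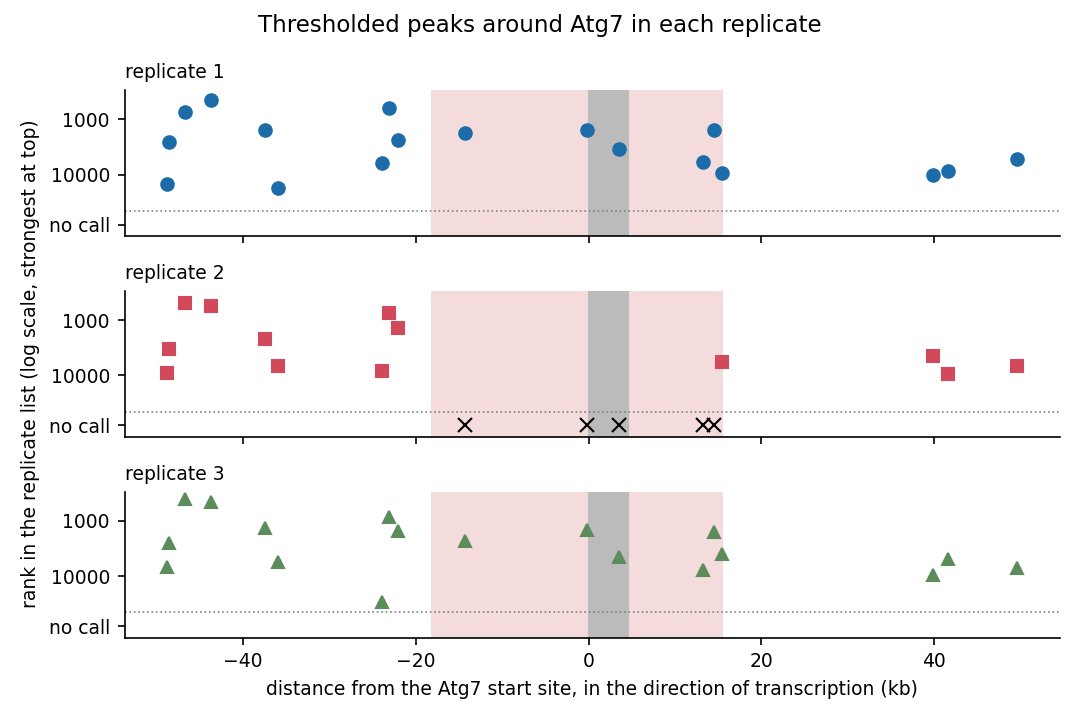
Thresholded peaks within 50 kb of the Atg7 TSS, by distance in the direction of transcription (kb, x axis) and rank in replicates 1, 2 and 3 (log scale, strongest at the top). Grey marks Atg7, pink the 33598-bp stretch without a call in replicate 2, and crosses the 5 peaks that replicate 2 did not call, all of which replicates 1 and 3 called.

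Together the 10 genes held 13 thresholded summits, with a median rank of 1581 and a range of 418 to 7710. Of these, 7 lay among the strongest 2012 peaks of the set, 2 between there and rank 4024, 3 between there and rank 6036, and 1 below that. By the top peak of each gene, the median rank was 1001 for the 9 autophagy genes with a peak, against 2758 for all 5328 protein-coding genes with a peak. The order was Atg2, Atg17, Atg18a, Atg5, Atg1, Atg7, Atg9, Atg8a and Atg13. A stronger top peak was held by 10.4% of the genes with a peak in the case of Atg2, by 21.8% in that of Atg1, and by 73.2% in that of Atg13.

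This order is only partly separated by the replicates. Atg2 and Atg17 exchanged places in replicate 2, where Atg18a with rank 349 stood ahead of both, at 375 for Atg17 and 378 for Atg2. In replicates 1 and 3, Atg18a ranked 998 and 907, behind both Atg5 and Atg1, so its place after Atg17 did not hold in these replicates. Atg5 and Atg1 ranked 829 and 948 in replicate 1, 950 and 1500 in replicate 2, and 777 and 863 in replicate 3, with Atg5 ahead each time. Atg8a was ahead of Atg9 in replicate 3 and behind it in replicates 1 and 2.

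**Figure D4:**
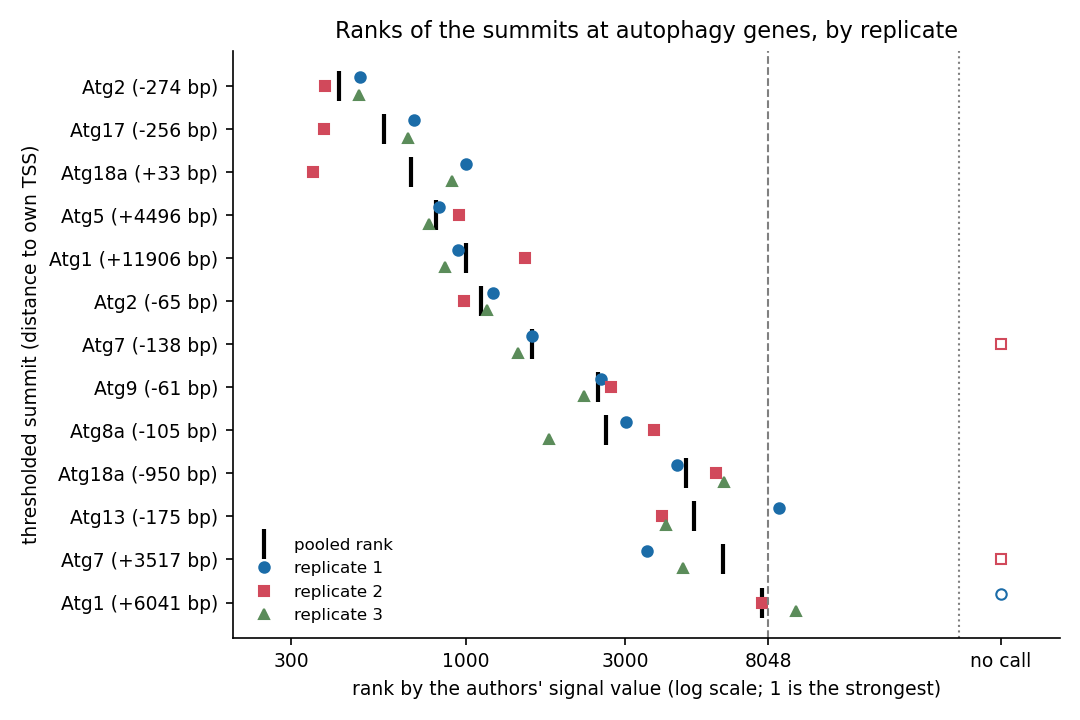
Rank of each of the 13 thresholded summits (rows, with the distance to the own TSS in bp) in the pooled list (black bar) and in replicates 1 (circle), 2 (square) and 3 (triangle), on a log axis. The dashed line marks rank 8048 and open symbols at the right mean that no call lay within 100 bp, as for Atg7 in replicate 2 and for the weaker Atg1 summit in replicate 1.

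Of the 13 summits, 9 (69.2%, interval 42.4 to 87.3) were found among the highest peaks of all 3 replicates, against 65.0% of all thresholded summits. Another 3 were found in 2 replicates and 1 in a single replicate, against 23.7% and 10.5% of all thresholded summits. The 4 that were not found in all were both summits of Atg7, the summit of Atg13 and the weaker summit of Atg1. Replicate by replicate, a peak lay at 8 of the 10 genes in replicate 1 (all genes 40.5%), at 8 in replicate 2 (all genes 34.6%) and at 9 in replicate 3 (all genes 38.1%). The gene lacking besides Atg101 was Atg13 in replicate 1 and Atg7 in replicate 2. With the thresholded set restricted to summits matched in both of the replicates that remain, the count was 8 without replicate 1, where Atg7 was lost, and 8 without replicate 2, where Atg13 was lost. It was 7 without replicate 3, where both were lost. The share of all genes in these 3 sets was 29.2%, 32.8% and 29.6%.

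Below the threshold the pooled list held 27 more calls at these genes, of which 12 lay at Atg1, 6 at Atg8a, 4 each at Atg5 and Atg17 and 1 at Atg2. Of the 27, 3 had a call in every replicate list, 2 of them at Atg1. The share over all pooled calls below the threshold was not computed, so this count has no background. At the Atg1 TSS the pooled calls were weak, with ranks of 18821 at -784 bp, 21316 at +66 bp and 18295 at +375 bp, and none of these was called in all 3 replicates. The start of the kinase gene thus had no peak of the strength seen in its intron.

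The autophagy genes share a layout that the choice of genes did not use. A TSS on the opposite strand lay within 1 kb upstream of 8 of the 10 genes, against 36.2% of all protein-coding genes. The distances between the paired start sites were 186 bp for Atg18a and ERR, 199 bp for Atg8a and BTBD9, 205 bp for Atg7 and Sec6, 270 bp for Atg9 and CG7747, 331 bp for Atg2 and CG12093, 379 bp for Atg17 and Xe7, 444 bp for Atg5 and Dok, and 786 bp for Atg1 and Sap130. Over the whole set, a promoter summit lay at 46.7% of all genes with such a neighbour, against 15.8% of those without. Of the 8 autophagy genes with a neighbour, 6 had a promoter summit, as did Atg13 without one. The 6 include Atg8a, whose summit was at an inner start site, 1126 bp from the TSS of BTBD9, and not at the paired start. At Atg2, Atg7, Atg9 and Atg17 the summit lay between the paired start sites, so these lists cannot assign it to 1 gene of the pair. Atg18a has a further annotated TSS, 324 bp from that of ERR. Its top summit lay between that TSS and ERR, so the same limit holds there. Of the 8 autophagy summits within 500 bp of an own TSS, 7 (87.5%) were upstream of it, with a median of -121.5 bp over the 8. For the 3485 thresholded summits within 500 bp of the nearest TSS of any gene, the values were 79.5% and -98 bp. The measures differ, because the stronger Atg2 summit, that upstream of Atg7 and that of Atg17 lay nearest to a neighbour's TSS. Those distances were 57, 67 and 123 bp, so the medians cannot be compared.

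The summit windows of these genes had a median of 34.7% G and C (19.8% to 45.5%, n = 13), against 32.7% over all 8048 windows. The search for motifs covered both strands and 50 bp to either side of each summit. The GATA sequences named above were searched for, as were the DRE and the BEAF-32 sequence, which can overlap each other. The others were the core promoter sequence of M1BP (GGTCACACT), the E-box CACGTG, the forkhead factor core of FOXO (GTAAACA), and the site of the nuclear receptor FTZ-F1, which reads AAGGTCA. For Runx factors a match was AACCACA in full, or the form AACCGCA, or a form that begins with G, which is GACCACA or, as the last of these forms, GACCGCA. Matches to GATA sequences were in 3 of the 13 windows, at Atg1 (the weaker summit), Atg2 and Atg13, against 16.6% of all thresholded windows. The summits at Atg1 and Atg13 were not found in all 3 replicates, and the count was 2 without replicate 1, 1 without replicate 2 and 1 without replicate 3. The other 7 motifs were in 0 of 13. Over all thresholded windows the Runx sequences were in 2.68%, BEAF-32 in 5.65%, FOXO in 2.42%, DRE in 1.60%, FTZ-F1 in 0.746%, M1BP in 0.721% and the E-box in 0.621%. With shares that low, no match in 13 windows carries little information, and a missing match says only that these letters are not in the window.

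In the 300 bases upstream of the outermost TSS, matches were more varied. The DRE was in 3 of the 10 promoters (Atg7, Atg8a and Atg17), against 8.58% of all promoters and 14.1% of those with a promoter summit. BEAF-32 was in 4 (Atg5, Atg8a, Atg13 and Atg17), against 18.6% and 23.6%, and GATA in 4 (Atg2, Atg5, Atg7 and Atg13), against 37.4% and 36.4%. Runx and M1BP sequences were each in 1, that of Atg8a, against 10.4% and 3.59% of all promoters. Among promoters with a promoter summit the shares were 9.65% for Runx and 5.74% for M1BP. The Runx match of Atg8a lay 121 bp upstream of its outermost TSS and 1045 bp from its summit. E-box, FOXO and FTZ-F1 sequences were in 0 of the 10, against 3.37%, 8.48% and 2.41% of all promoters. The Atg7 promoter had its DRE 125 bp from its summit, the smallest distance of the 3 promoters with a DRE.

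A list of 38 other genes of the pathway was examined in the same way. A peak lay at 22 of them (57.9%, interval 42.2 to 72.1), against 38.1% of all protein-coding genes, and a promoter summit at 18, against 26.9%. The median top rank over the 22 was 3375.5, weaker than the 2758 over all protein-coding genes with a peak. Among 13 other genes of the core machinery, 8 had a peak: Pi3K59F, the lipid kinase, Vps15, its regulatory subunit, Atg14 and Uvrag, which bind that complex, the protease gene Atg4b, the conjugation genes Atg3 and Atg12, and Atg18b. Atg4a, Atg6, Atg8b, Atg10 and Atg16 had none. The top ranks were 1615 for Pi3K59F, where the summit lay nearest to the TSS of apt, 2128 for Atg4b and 2749 for Vps15. The summit at Atg4b ranked 2385, 2855 and 1719 in replicates 1, 2 and 3, and that at Vps15 ranked 2229, 2673 and 3223.

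Of 12 genes of fusion with the lysosome, 7 had a peak. Snap29, a SNARE that pairs with Syx17, had a top rank of 975, with a summit 102 bp upstream of its TSS that ranked 1019, 1229 and 961 in the replicates. Epg5, a tethering factor, had a top rank of 1014 at -172 bp, with replicate ranks of 957, 847 and 1437. Rab7, the late endosome GTPase, had a top rank of 3152, with 2014 and 4307 in replicates 1 and 3 and no call in replicate 2. Syx17, dor, car and Vps39 also had a peak, and Vamp7, lt, Vps11, Vps16A and Rab2 had none.

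Of 4 cargo and selective autophagy genes, bchs and park had weak peaks of rank 6054 and 7504, and ref(2)P, which encodes the cargo receptor related to p62, and the kinase gene Pink1 had none. Of 9 regulators, 5 had a peak. REPTOR, a transcription factor that acts when TORC1 activity falls, held 6 peaks with a top rank of 104 at -169 bp, and that summit ranked 91, 169 and 95 in replicates 1, 2 and 3, above every summit of the 10 autophagy genes in each. Tor had a top rank of 1797, with the TSS of Vha68-1 nearest, and Rheb, the GTPase that activates TORC1, had 2648, with that of CG2931 nearest. The TORC1 subunit gene raptor and foxo, with 3 peaks, also had peaks, while Mitf, AMPKalpha, Tsc1 and gig had none.

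**Figure D5:**
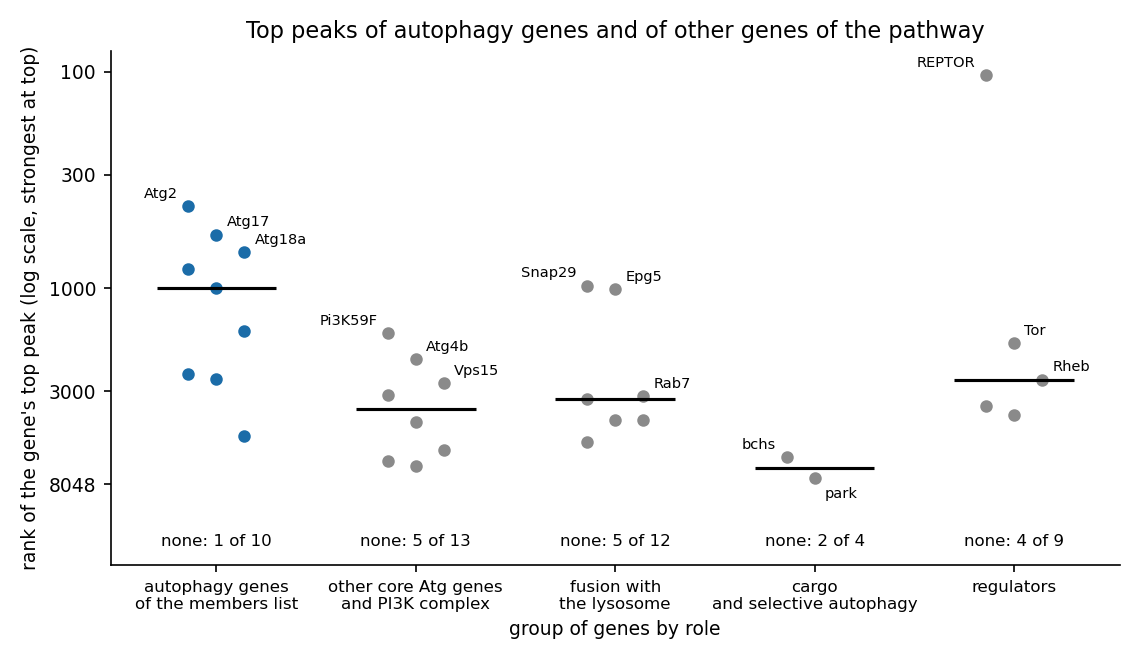
Rank of the top peak of each gene (log scale, strongest at the top) for the 10 autophagy genes (blue, left) and the 38 other genes of the pathway by role (grey); lines are medians and the number of genes without a peak stands below. The blue points range from 418 to 4805 with a median of 1001, and REPTOR at 104 lies above them all.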

How the data were processed

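Peak lists of lz-GFP ChIP-seq from 3 biological replicates (1 group, whole white prepupae) were used on the dm6 build. The authors deposited, per the labels and file lists, 30000 peaks and background regions for each replicate and for the pooled replicates, and a set of 8048 peaks thresholded by reproducibility between replicates. The file lists that the authors deposited name 1 control alignment behind the calls. The sources used here do not name the aligner, the caller or the level of the threshold. The signal column is the authors' deposited signal value per peak and served for ranks inside each list only. All 8048 thresholded peaks were among the 8048 highest pooled peaks by signal. Depth is unknown, so intervals cover the counting of genes or summits. The dm3 lists were not used here.

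Summits were assigned to Ensembl release 115 gene models (13968 protein-coding genes) within the gene span plus 1 kb, so a summit can count for more than 1 gene, and each summit of a shared interval was kept. TSSs are the 5' ends of all annotated transcripts. Sequences came from the RefSeq dm6 genome; the first codon read ATG in 13905 of 13968 genes (99.5%), and no peak ran past a chromosome end. Coordinates are 1-based. The pathway gene Tor was matched under another name, mTor. The members and lists were chosen with earlier results of these data known. All 10 members were named; every other pathway gene was named by whether it had a peak, with the top rank of up to 3 per role; and neighbours were named where their TSS was nearest to a member summit or lay opposite within 1 kb. CG1677, lncRNA:CR44357, GEFmeso, CG30122, S6KL, apt, Vha68-1 and CG2931 were named after their values were seen. Alternatives covered the replicates, the number of peaks, the gene margin, the promoter distance, the matching distance and the motif window. Simulated positions were used to test the matching of summits within 100 bp. A check of the 1 kb margin only repeated its own rule, and the other steps were not tested on simulated data. Figures were drawn with matplotlib 3.10.9, and tables and intervals were made in Python 3.11.15 with pandas 2.3.3, scipy 1.17.1 and numpy 2.4.6.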

Additional observations from a re-analysis of the deposited data

How the results depend on the processing

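Leaving a replicate out meant keeping the thresholded summits matched in both other replicates. Peaks were not called anew, so counts with a replicate left out could only fall or stay. The count of 9 autophagy genes with a peak was 7 to 8 when a replicate was left out (29.2% to 32.8% of all genes). It was 8 with the 4024 strongest peaks (24.8% of all genes) and 10 with 5 kb added to the gene span (59.4%). With the gene span alone it was 5 (15.9% of all genes), since most promoter summits lie upstream. The 13 summits numbered 9 to 11 with a replicate left out, 24 with 5 kb added and 6 with the span alone. Genes whose own TSS was nearest numbered 7 in the main count, 5 to 6 with a replicate left out and 4 with the span alone. Promoter summits were at 5 to 6 genes with a replicate left out, against 7 with all 3. Shares of all genes were not set beside these own-TSS and promoter counts, so their background in these settings is not known. Of the 38 other pathway genes, 22 had a peak, 15 to 19 with a replicate left out, 13 with the 4024 strongest peaks and 5 with the span alone. The shares of all genes were 38.1% in the main count and 29.2% to 32.8%, 24.8% and 15.9% in these settings. With the span alone, the share of the other pathway genes did not exceed that of all genes. Windows with a motif fell to 1 to 2 with a replicate left out, against 3. Summits found in all replicates numbered 8 when matched within 50 bp, 9 within 250 bp and 10 with all calls, against 9. The share over all thresholded summits, 65.0%, was computed for the main setting only. No paired analysis was possible because there is 1 group. Depth limits could not be examined, as the lists hold no counts.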
